A study of Mus musculus with 22 samples.

Results

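The genes described here were strongly expressed in 3 cultures of mouse primitive endoderm (PrE) stem cells and close to silent in embryonic stem cells (ESCs), and their behaviour was followed in ESCs that lack the Polycomb enzyme Ezh2 and in the same cells after rescue. Members were chosen by measured level. In CPM, the estimated count of a gene scaled by the total of its library, a member averaged at least 30 CPM in each of C57.PrESC, EPZ.iPrE1 and EPZ.iPrE2, and under 3 CPM in each of E14.ESC and TG2A.NG.PB.S2iL. Of 55367 gene symbols, 42 met both level conditions. From these, 8 were left out by symbol, mostly from the best known PrE families, such as Gata4, Gata6, Sox17 and Pdgfra, but also the collagen gene Col1a1, and Nxf7 was left out because it is not autosomal, which gave 33 members. All 33 are annotated as protein coding, lie on 13 chromosomes and passed the filter on low counts.

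Primitive endoderm is the layer of the blastocyst that faces the cavity and later gives the visceral and parietal endoderm of the yolk sacs. Its cells are known for taking up nutrients by endocytosis, for secreting the thick basement membrane of the parietal yolk sac and for sending signals to the epiblast. Ezh2 is the methyltransferase of Polycomb repressive complex PRC2, which places the repressive mark on histone H3 at the start sites of many developmental genes, often in CpG-rich DNA.

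RNA-seq of 22 libraries from 10 groups was used. The PrE stem cell cultures were EPZ.iPrE2 and EPZ.iPrE1, a pair of lines obtained from wild-type E14 ESCs with the EZH2 inhibitor EPZ-6438, and C57.PrESC, from a C57 line (n = 2 libraries each). The Ezh2-null cells were 1 clone of E14 background, clone 10, grown with LIF (EZH2KO.10SL, n = 3) or with LIF and 2i, the inhibitor pair used for naive ESC culture (EZH2KO.10S2iL, n = 2), and EZH2KO.10SL.rescued was that clone with Ezh2 restored, grown with LIF (n = 2). Wild-type ESCs were C57.ESC (n = 2), TG2A.NG.PB.ESC (n = 2) and E14.ESC (n = 3) with LIF, and TG2A.NG.PB.S2iL (n = 2) with LIF and 2i, all but C57.ESC of E14 background. Differences between the knockout and wild type thus rest on 1 clone. No label ties a replicate to its own culture, so p-values measure only the spread between these libraries.

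Each library held 13.6 to 26.3 M estimated counts in total. Ezh2 itself had 502 and 534 CPM in rescued cells, against 2, 1 and 1 reads in the EZH2KO.10SL libraries and 192 and 189 CPM in TG2A.NG.PB.ESC, and 6 and 0 reads in EZH2KO.10S2iL. A list of 11 PrE markers summed to 10250 to 13940 CPM in the PrE cultures, and 7 ESC markers to 3833 to 3913 CPM in EZH2KO.10SL, against 3745 to 4498 CPM in TG2A.NG.PB.ESC. C57 libraries stood apart within their groups: 14 fibroblast (feeder) markers summed to 2271 CPM in C57.PrESC replicate 2 and to 45.5 CPM in replicate 1, and to 509 CPM in C57.ESC replicate 2 and 108 CPM in replicate 1. The PrE markers also differed, at 659 CPM in C57.ESC replicate 1 and 134 CPM in replicate 2. The wild-type TG2A.NG.PB.ESC libraries also differed: visceral endoderm genes summed to 973 CPM in replicate 2 and 164 CPM in replicate 1, and 12 macrophage markers to 154 CPM and 76.1 CPM. Apoe, at a group mean of 546 CPM, made up most of the visceral endoderm sums, and Laptm5, at 105 CPM, most of the macrophage sums. Comparisons that use C57 or TG2A.NG.PB.ESC libraries were repeated with each of them left out. In bulk RNA, fewer cells of a type and less RNA per cell cannot be told apart.

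The DNA around the starts of the members differed widely in CpG content, and 5 windows show this range. The first 3 belong to members whose knockout level was among the most reduced with 2i, and the last 2 to members that showed little change with 2i. The 5 were chosen with these values known, so they are examples and no measure of how CpG content and change go together. Each window runs from 250 bases before to 50 bases after an annotated start (RefSeq, build GRCm38.p6), is written 5′ to 3′ on the strand of the gene, and has its CpG pairs in capitals.
Habp2 (chr19:56287662-56287961, + strand) held 4 CpG:
Habp2: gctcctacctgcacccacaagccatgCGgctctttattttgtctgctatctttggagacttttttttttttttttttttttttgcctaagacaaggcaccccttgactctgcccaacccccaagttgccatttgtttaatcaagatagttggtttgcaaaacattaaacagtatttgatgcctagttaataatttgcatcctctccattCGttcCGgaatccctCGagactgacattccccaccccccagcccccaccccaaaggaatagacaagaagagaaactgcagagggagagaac
Nostrin (chr2:69135550-69135849, + strand) held 3 CpG:
Nostrin: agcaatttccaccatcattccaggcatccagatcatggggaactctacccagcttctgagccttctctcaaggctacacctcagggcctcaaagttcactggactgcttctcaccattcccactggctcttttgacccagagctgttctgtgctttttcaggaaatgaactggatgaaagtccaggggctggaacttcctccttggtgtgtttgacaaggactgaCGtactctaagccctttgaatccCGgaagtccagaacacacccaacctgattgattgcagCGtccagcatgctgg
Srgn (chr10:62527396-62527695, − strand), the more CpG-rich of its 2 windows, held 8 CpG:
Srgn: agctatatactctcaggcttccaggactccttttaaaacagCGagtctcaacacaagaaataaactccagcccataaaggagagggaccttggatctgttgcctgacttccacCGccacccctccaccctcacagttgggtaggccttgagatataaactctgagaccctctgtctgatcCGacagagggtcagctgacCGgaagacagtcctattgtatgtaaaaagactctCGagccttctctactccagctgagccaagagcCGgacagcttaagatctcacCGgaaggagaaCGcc
Fam114a1 (chr5:64969825-64970124, + strand) held 28 CpG:
Fam114a1: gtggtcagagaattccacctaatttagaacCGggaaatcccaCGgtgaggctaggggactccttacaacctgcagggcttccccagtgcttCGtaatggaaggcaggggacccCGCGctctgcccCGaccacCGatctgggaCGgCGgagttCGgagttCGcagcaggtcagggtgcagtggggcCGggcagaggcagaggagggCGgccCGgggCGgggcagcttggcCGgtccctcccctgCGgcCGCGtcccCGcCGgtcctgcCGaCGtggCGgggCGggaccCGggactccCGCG
Wnt11 (chr7:98834862-98835161, + strand), the more CpG-rich of its 2 windows, held 45 CpG:
Wnt11: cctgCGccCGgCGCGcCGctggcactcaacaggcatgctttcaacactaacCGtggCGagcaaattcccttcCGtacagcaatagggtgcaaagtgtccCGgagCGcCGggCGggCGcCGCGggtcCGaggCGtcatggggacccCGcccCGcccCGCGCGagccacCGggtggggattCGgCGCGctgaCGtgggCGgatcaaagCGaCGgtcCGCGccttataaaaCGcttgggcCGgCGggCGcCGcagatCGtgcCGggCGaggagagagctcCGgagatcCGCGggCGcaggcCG

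The levels in PrE cultures and in the ESC groups of the rule chose the members and are given as description. Group means ran from 33.4 CPM for Cyp27a1 to 569 CPM for Srgn in EPZ.iPrE2, from 30.2 CPM for Cyp27a1 to 440.0 CPM for Srgn in EPZ.iPrE1 and from 38.0 CPM for Gpat3 to 827 CPM for Srgn in C57.PrESC. Srgn, the core protein of the granule proteoglycan serglycin, was thus the highest member in all 3 cultures, and it stayed first per length, at 279 CPM per kb of exon over the PrE groups, ahead of Foxq1 at 81.1, Clic6 at 80.8, Aqp8 at 75.5 and Dkk1 at 73.3 CPM per kb. Over the EPZ-derived lines alone Srgn was again first, at 230 CPM per kb, ahead of Foxq1 at 89.4, Dkk1 at 72.7, Ube2l6 at 67.7 and Clic6 at 58.7 CPM per kb. The other members with the highest mean over the PrE groups, in CPM without regard to length, were Runx1, Lrrk1, Habp2, Flt1, Amn, Pth1r and Ube2l6. Across members the median was 24.2 CPM per kb and the lowest was Smarca2 at 7.39 CPM per kb. In E14.ESC the group means ran from 0.0381 CPM for Aqp8 to 2.91 CPM for Rhpn1.

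Members nearest inside the floor were Cyp27a1, whose lowest PrE group averaged 30.2 CPM, Wnt11 at 32.5 CPM and Esam at 33.7 CPM. Cdh4 at 29.6 CPM, Clic5 at 29.4 CPM and Tent5a at 28.9 CPM fell just short of it. At the ceiling, Rhpn1 at 2.91 CPM, Cyp27a1 at 2.72 CPM and Nrg2 at 2.67 CPM in their higher ESC group were nearest inside, and Slc30a4 at 3.19 CPM, Ankrd33b at 3.29 CPM and Aebp1 at 3.34 CPM nearest outside.

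**Figure D1:**
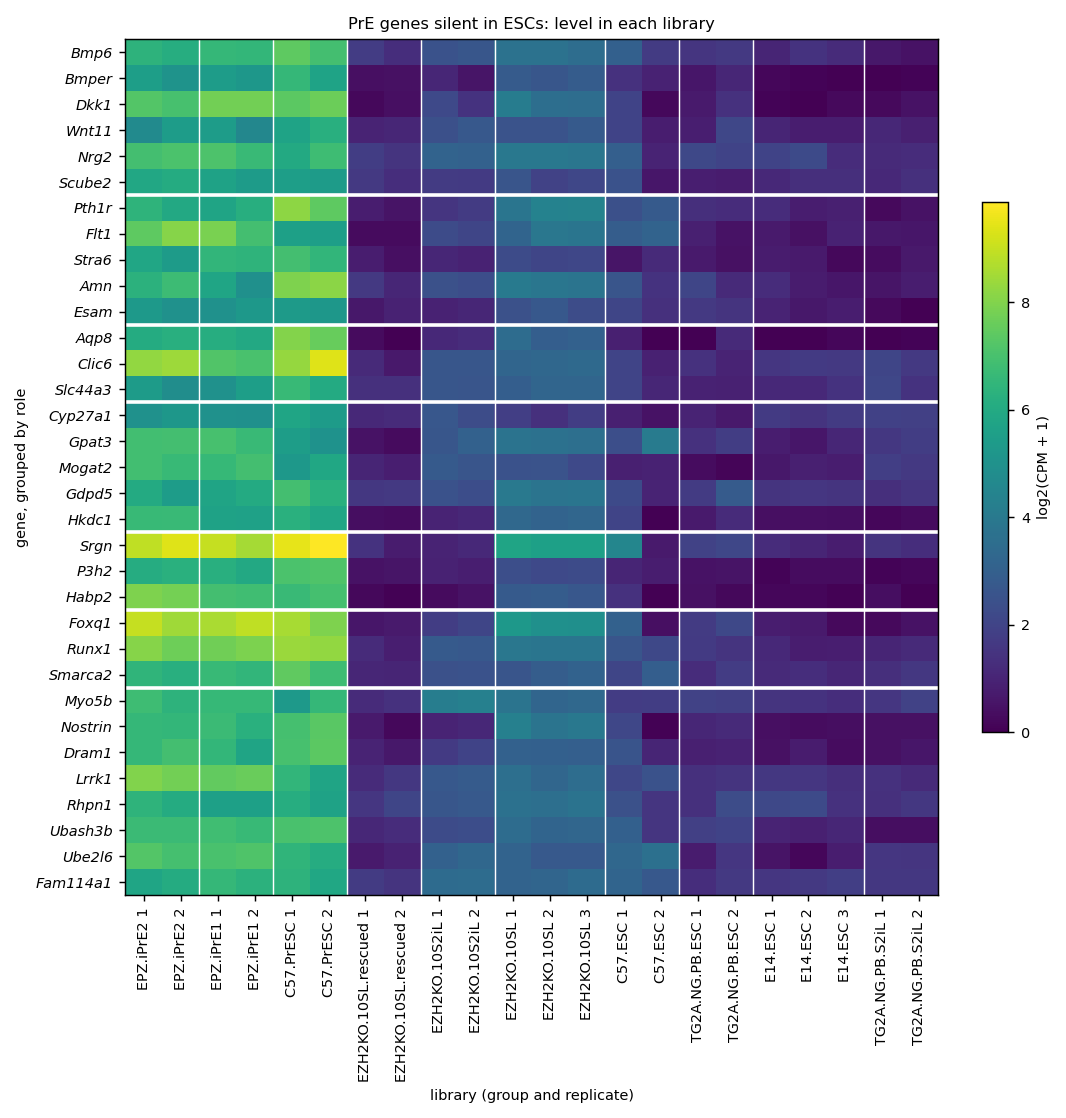
Level of each member in each library, as log2(CPM + 1), with members in rows grouped by role and libraries in columns grouped by culture. The 6 PrE libraries are bright for every member, the 3 EZH2KO.10SL libraries form an intermediate block, and the EZH2KO.10SL.rescued columns are about as dark as those of TG2A.NG.PB.ESC and E14.ESC.

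The first question was whether loss of Ezh2 released these genes in ESCs kept with LIF. The comparison used TG2A.NG.PB.ESC, a wild-type set that the rule did not use. In it, 32 of 33 members were called higher in EZH2KO.10SL (edgeR quasi-likelihood test, Benjamini-Hochberg adjusted p below 0.05) and none lower, where 13.6% of all 17547 genes tested were called higher and 14.1% lower. The members' median log2 fold change was 2.66, against 0.02 over all genes tested. Among the 5759 tested genes that were under 3 CPM in both ESC groups of the rule, 17.4% were called higher and 1.86% lower. Among the 5255 tested genes at 30 CPM or more in all 3 PrE cultures that were not that low in ESCs, 12% were called higher and 28.7% lower. For all 33 members every EZH2KO.10SL library lay above every TG2A.NG.PB.ESC library. This is a description only, since the share over all genes tested was not counted. Wnt11 was the member not called, at 1.24 ± 0.50 (SE, adjusted p = 0.0741).

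The gain was partial. Mean levels in EZH2KO.10SL were 2.79% (Clic6) to 19.4% (Gdpd5) of the mean over the PrE cultures, with a median of 8.08%. Against the mean of the EPZ-derived lines alone, an alternative added after the values were seen, they were 3.35% (Habp2) to 26.05% (Pth1r), with a median of 9.80%. Summed over the 33 members, EZH2KO.10SL held 346 to 380 CPM, against 46.8 to 59.7 CPM in TG2A.NG.PB.ESC, while the PrE cultures held 3587 to 5030 CPM. Group means above 3 CPM were seen for 32 members in EZH2KO.10SL, against 3 in TG2A.NG.PB.ESC.

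The second question was whether restoring Ezh2 to the clone silenced them again. In EZH2KO.10SL.rescued against EZH2KO.10SL, 32 of 33 members were called lower and none higher, where 24.1% of all genes tested were called lower and 20.9% higher. The members' median log2 fold change was −3.03, against −0.11 over all genes tested with TMM scaling and −0.10 with RLE scaling. Among the tested genes under 3 CPM in both ESC groups of the rule, 22.5% were called lower and 6.74% higher. Every rescued library lay below every EZH2KO.10SL library for all 33 members, again a description without the share over all genes tested. Scube2 was the member not called, at −1.07 ± 0.50 (SE, adjusted p = 0.0947). Rescued cells held 31.6 to 35.9 CPM summed over the members, and their level of a member was 1.40% (Aqp8) to 56.9% (Cyp27a1) of that in EZH2KO.10SL, with a median of 11.9%. These comparisons share the EZH2KO.10SL libraries, so the changes of a member in them are not independent of each other.

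**Figure D2:**
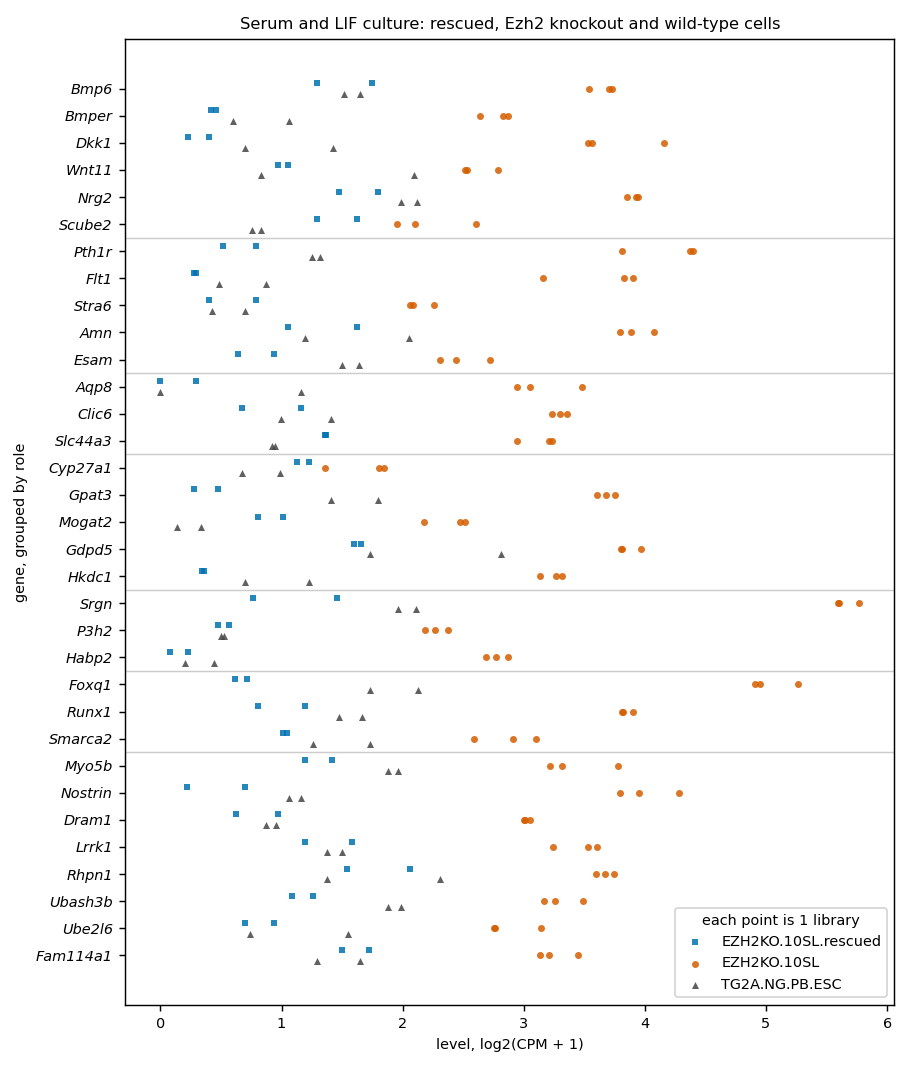
Level of each member as log2(CPM + 1) in EZH2KO.10SL.rescued (squares), EZH2KO.10SL (circles) and TG2A.NG.PB.ESC (triangles), 1 point per library, with genes in rows grouped by role. The EZH2KO.10SL points lie to the right of all others in every row, with Srgn and Foxq1 farthest right.

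Of the secreted ligands and their modulators, 5 of 6 were called higher in the knockout and 5 of 6 lower after rescue. Dkk1, a secreted inhibitor of Wnt signalling, had 0.169 and 0.322 CPM in rescued cells, against 16.9, 10.8 and 10.5 CPM in knockout cells and 0.619 and 1.68 CPM in TG2A.NG.PB.ESC. Its knockout libraries were all far above the others. The log2 fold change of Dkk1 was −5.63 ± 0.74 for rescue (SE, adjusted p = 1.64e-05) and 3.36 ± 0.56 for knockout over wild type (adjusted p = 0.000383). Bmp6, a ligand of the bone morphogenetic protein (BMP) family, had 2.36 and 1.45 CPM in rescued cells, against 12.1, 12.2 and 10.6 CPM in knockout and 1.86 and 2.13 CPM in wild-type cells. Bmper, a secreted protein that binds BMPs, had 0.337 and 0.376 CPM in rescued, 6.08, 5.23 and 6.31 CPM in knockout and 0.516 and 1.09 CPM in wild-type cells. Both were highest in the 3 knockout libraries, with log2 fold changes over wild type of 2.46 for Bmp6 and 2.77 for Bmper. Nrg2, a neuregulin ligand of ErbB receptors, changed by −2.70 on rescue and 2.06 in the knockout. Wnt11 changed least of the group in the knockout, at 1.24, and Scube2 least on rescue, at −1.07. Wnt11, a Wnt ligand, had 0.956 and 1.08 CPM in rescued, 4.77, 4.72 and 5.92 CPM in knockout and 0.773 and 3.26 CPM in wild-type cells. The second wild-type library came close to the knockout for Wnt11, though the groups did not overlap. Scube2, a secreted glycoprotein that helps to release Hedgehog ligands, had 2.08 and 1.45 CPM in rescued, 5.10, 2.87 and 3.29 CPM in knockout and 0.773 and 0.692 CPM in wild-type cells, so that the rescued libraries lay between the other groups.

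All 5 receptors and surface proteins were called higher in the knockout and lower after rescue. Flt1, a receptor for vascular endothelial growth factors, had 0.225 and 0.215 CPM in rescued cells, against 7.93, 13.96 and 13.2 CPM in knockout cells and 0.825 and 0.396 CPM in wild-type cells. No rescued or wild-type library approached the lowest knockout library. Its log2 fold change was −5.66 ± 0.51 for rescue (SE, adjusted p = 3.82e-07) and 4.17 ± 0.42 for the knockout (adjusted p = 5.93e-06). Pth1r, the receptor for parathyroid hormone and its related peptide and a known parietal endoderm gene, had 0.731 and 0.430 CPM in rescued, 13.1, 19.7 and 20.04 CPM in knockout and 1.495 and 1.39 CPM in wild-type cells. Its log2 fold change was −4.89 ± 0.40 for rescue and 3.52 ± 0.34 for the knockout (SE, adjusted p = 1.68e-07 and 4.31e-06). Amn, which anchors the endocytic receptor cubilin, had 2.08 and 1.08 CPM in rescued, 15.8, 13.8 and 12.9 CPM in knockout and 3.15 and 1.29 CPM in wild-type cells. Stra6, the cell-surface receptor through which retinol is taken up, was called at a much lower level, with 3.78, 3.16 and 3.25 CPM in knockout cells against 0.619 and 0.346 CPM in wild-type cells. Esam, an adhesion molecule best known from endothelium, gave the smallest called change, 1.16 ± 0.33 (SE, adjusted p = 0.0149), and lost its call when TG2A.NG.PB.ESC replicate 1 or 2 or EZH2KO.10SL replicate 2 was left out, with an adjusted p of up to 0.0903. Summed levels of 12 endothelial markers were 143 to 155 CPM in rescued cells, 129 to 135 CPM in EZH2KO.10SL and 102.5 to 141 CPM in TG2A.NG.PB.ESC, with Pecam1, which is also expressed in ESCs, the largest part. Of 11 tested, Cdh5 was called higher in the knockout, and 4 were called lower and 1 (Pecam1) higher after rescue. The shares of all genes tested were 13.6% higher in the knockout, and 24.1% lower and 20.9% higher after rescue. Cdh5, the cadherin of endothelial junctions, had 0.562 and 0.108 CPM in rescued, 4.36, 2.699 and 1.80 CPM in knockout and 0.155 and 0.940 CPM in wild-type cells. Kdr, the other main VEGF receptor, had 0.393 and 0.269 CPM in rescued, 4.28, 4.30 and 2.41 CPM in knockout and 1.19 and 1.09 CPM in wild-type cells. It was not called in the knockout. Other listed genes went the other way, among them Tie1, Tek and Plvap. Their means were 0.972, 11.2 and 1.89 CPM in EZH2KO.10SL, against 2.48, 14.8 and 2.76 CPM in TG2A.NG.PB.ESC. The median log2 fold change of the 11 tested in the knockout was 0.13. The part of endothelial-type expression in the changes of Flt1, Esam and Nostrin was not tested.

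The 3 channel and transporter genes all rose in the knockout and fell after rescue. Aqp8, a water channel, had 0.225 and 0 CPM in rescued cells, against 10.2, 6.70 and 7.28 CPM in knockout and 0 and 1.24 CPM in wild-type cells. Its change on rescue, −6.09 ± 0.89 on the log2 scale (SE, adjusted p = 4.24e-05), was the largest of any member, although 1 rescued and 1 wild-type library held no read of it. Clic6, of the intracellular chloride channel family, had 1.24 and 0.591 CPM in rescued, 8.39, 8.86 and 9.25 CPM in knockout and 1.65 and 0.989 CPM in wild-type cells. Slc44a3, of the choline transporter-like family, changed by −2.28 on rescue and by 3.00 in the knockout.

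All 5 enzymes of lipid, sterol and sugar metabolism were also called in both comparisons. Mogat2, which makes diacylglycerol from monoacylglycerol, had 1.01 and 0.752 CPM in rescued, 4.56, 4.72 and 3.51 CPM in knockout and 0.258 and 0.0989 CPM in wild-type cells. Its rise in the knockout, 4.46 ± 0.36 (SE, edgeR adjusted p = 8.64e-07), was the largest of any member. Its rescued libraries stayed above those of TG2A.NG.PB.ESC, but that group held only 7 estimated reads of Mogat2, at a mean of 0.178 CPM. The means were 0.882 CPM in rescued cells, 0.694 CPM in E14.ESC, 0.852 CPM in C57.ESC and 2.33 CPM in TG2A.NG.PB.S2iL. Gpat3, an acyltransferase at the first step of glycerolipid synthesis, behaved differently, with 0.393 and 0.215 CPM in rescued cells, against 12.5, 11.8 and 11.2 CPM in knockout and 1.65 and 2.47 CPM in wild-type cells, so that rescued libraries lay below wild type. Hkdc1, a hexokinase-like gene, had 0.281 and 0.269 CPM in rescued, 8.96, 7.80 and 8.64 CPM in knockout and 0.619 and 1.34 CPM in wild-type cells. Gdpd5, a glycerophosphodiester phosphodiesterase, was nearest to its PrE level in the knockout when all 3 cultures were averaged, and second to Pth1r against the EPZ-derived lines alone, with 14.7, 12.9 and 13.1 CPM, but its wild-type libraries were uneven at 2.32 and 6.03 CPM. Its call, 1.60 ± 0.39 (SE, adjusted p = 0.00564), was lost without TG2A.NG.PB.ESC replicate 1 (adjusted p = 0.0826). Cyp27a1, a mitochondrial sterol hydroxylase, was the lowest member in the knockout and had 1.18 and 1.34 CPM in rescued, 2.59, 1.56 and 2.50 CPM in knockout and 0.980 and 0.593 CPM in wild-type cells. The lowest knockout library of Cyp27a1 was close to the rescued ones. It was also the member whose knockout libraries overlapped E14.ESC, where it had 2.16, 1.79 and 2.28 CPM. Its fall on rescue, −0.78 ± 0.29 (SE, adjusted p = 0.0351), was lost when EZH2KO.10SL replicate 1 or 3 or either rescued library was left out, with an adjusted p of up to 0.21.

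Srgn, the granule proteoglycan, reached the highest knockout level of any member. It had 1.74 and 0.699 CPM in rescued cells, against 53.6, 47.5 and 47.2 CPM in knockout cells and 2.89 and 3.31 CPM in wild-type cells. The knockout libraries agreed closely and stood far above all others, and the log2 fold change was −5.32 ± 0.83 for rescue (SE, adjusted p = 8.04e-05) and 3.91 ± 0.72 for the knockout (adjusted p = 0.000847). Serglycin is also abundant in macrophages and other blood cells. The 12 macrophage markers summed to 68.2 to 87.5 CPM in EZH2KO.10SL with 5 to 7 of them at 0, against 76.1 to 154 CPM in TG2A.NG.PB.ESC with 7 to 9 at 0. Laptm5 made up most of these sums, with group means of 72.7 CPM in EZH2KO.10SL and 105 CPM in TG2A.NG.PB.ESC. Habp2, a hyaluronan-binding serine protease of the blood plasma, had 0.169 and 0.0537 CPM in rescued, 5.84, 6.33 and 5.44 CPM in knockout and 0.361 and 0.148 CPM in wild-type cells. Its log2 fold change was −5.63 ± 0.77 for rescue and 4.42 ± 0.65 for the knockout (SE, adjusted p = 2.27e-05 and 0.000139). P3h2, a prolyl hydroxylase of collagen chains, had 0.393 and 0.484 CPM in rescued, 4.18, 3.55 and 3.82 CPM in knockout and 0.414 and 0.436 CPM in wild-type cells. P3h2 had one of the smallest adjusted p-values of the members (edgeR, 5.80e-07 for a change of 3.06 ± 0.24, SE).

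Among transcription and chromatin factors, Foxq1, a forkhead transcription factor, had 0.531 and 0.645 CPM in rescued cells, against 37.5, 29.98 and 29.0 CPM in knockout cells and 2.32 and 3.36 CPM in wild-type cells. Only Srgn was higher in the knockout. The log2 fold change of Foxq1 was −5.76 ± 0.74 for rescue (SE, adjusted p = 1.26e-05) and 3.41 ± 0.57 for the knockout (adjusted p = 0.000425). An antisense transcript, A530084C06Rik, covers 66.1% of its exon bases, and strand use in the counting is not given in the sources used here, so reads of the pair cannot be told apart. Antisense genes also cover 30.04% of the exon bases of Gpat3 and 28.4% of those of P3h2. Runx1, the transcription factor at the head of blood formation, had 1.29 and 0.752 CPM in rescued, 13.9, 13.1 and 13.1 CPM in knockout and 2.17 and 1.78 CPM in wild-type cells, and changed by −3.68 ± 0.24 on rescue and 2.68 ± 0.21 in the knockout (SE, adjusted p = 2.87e-08 and 5.80e-07). Smarca2, an ATPase of SWI/SNF chromatin remodelling complexes, had 1.07 and 1.02 CPM in rescued, 5.02, 6.54 and 7.59 CPM in knockout and 1.39 and 2.32 CPM in wild-type cells. Its change was smaller, at −2.58 on rescue and 1.68 in the knockout.

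All 8 trafficking, signalling and protein-turnover genes were called in both comparisons. Nostrin, an adaptor that guides endothelial nitric oxide synthase inside cells, had 0.618 and 0.161 CPM in rescued cells, against 18.4, 12.9 and 14.4 CPM in knockout cells and 1.08 and 1.24 CPM in wild-type cells. It moved most in this group, by −5.26 ± 0.69 on rescue (SE, adjusted p = 1.53e-05) and 3.62 ± 0.57 in the knockout (adjusted p = 0.000238). The other 7 changed by 1.57 to 2.91 in the knockout and by −3.22 to −2.04 on rescue. Dram1, a lysosomal membrane protein of autophagy, marked the upper end of that range and Ubash3b, a tyrosine phosphatase of the Sts family, the lower end in the knockout. Myo5b, a myosin motor of recycling endosomes, had 1.29 and 1.67 CPM in rescued, 12.7, 8.31 and 8.95 CPM in knockout and 2.89 and 2.67 CPM in wild-type cells. Ube2l6, the conjugating enzyme for the ubiquitin-like modifier ISG15, had 0.618 and 0.914 CPM in rescued, 7.81, 5.73 and 5.79 CPM in knockout and 0.670 and 1.93 CPM in wild-type cells. Lrrk1, a leucine-rich repeat kinase, Rhpn1 and Fam114a1 had knockout log2 changes of 2.46, 1.98 and 2.18.

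After rescue few members differed from wild type by the test. In EZH2KO.10SL.rescued against TG2A.NG.PB.ESC, 1 member was called higher and 4 lower, where 10% of all genes tested were called higher and 11.6% lower. Mogat2 stayed higher than in TG2A.NG.PB.ESC, which held few reads of it, by 2.21 ± 0.49 (SE, edgeR adjusted p = 0.00410). 4 members were lower, with log2 fold changes of −2.81 ± 0.73 for Gpat3, −1.46 ± 0.42 for Esam, −1.22 ± 0.42 for Ubash3b and, for Runx1, −1.01 ± 0.30 (SE, edgeR adjusted p = 0.0113, 0.0202, 0.0473 and 0.0247). Each of these 5 calls depended on single libraries: none was left without TG2A.NG.PB.ESC replicate 2, and 6 (1 higher and 5 lower) were made without replicate 1. The members' median log2 fold change was −0.96, and 6 of 33 were positive, so the missing calls do not show equal levels. Ezh2 in rescued cells was above wild type by 1.39 on the log2 scale.

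The third question was what 2i did to the members in cells without Ezh2. In EZH2KO.10S2iL against EZH2KO.10SL, 23 members were called lower and 1 higher, where 17.3% of all genes tested were called lower and 19.6% higher. The median log2 fold change was −1.37, against 0.06 over all genes tested with TMM scaling and 0.10 with RLE scaling. Among the tested genes under 3 CPM in both ESC groups of the rule, 5.82% were called lower and 11% higher. Members summed to 136 to 141 CPM in EZH2KO.10S2iL, and a member's level was 2.22% (Srgn) to 207% (Cyp27a1) of that in EZH2KO.10SL, with a median of 42.6%. The members were spread widely: 4 had under 10% and 5 more than 100% of their level without 2i. Of the 11 PrE markers, 10 were called lower with 2i, and their sum was 458 to 461 CPM in EZH2KO.10S2iL, against 1670 to 1925 CPM in EZH2KO.10SL. Of 8 tested trophoblast markers, 4 were called higher with 2i, and the sum over the list was 178 to 182 CPM in EZH2KO.10S2iL, against 67.4 to 77.3 CPM in EZH2KO.10SL. Tfap2c and Tead4, at means of 70.2 and 37.1 CPM in EZH2KO.10S2iL, made up much of that sum. Wild-type TG2A.NG.PB.S2iL held 126 to 127 CPM over the list. Fibroblast markers summed to 167 CPM in both EZH2KO.10S2iL libraries, against 99.5 to 108 CPM in EZH2KO.10SL, with 1 of 14 called lower. Fbln1, Thy1 and Pdgfrb, at means of 89.7, 33.65 and 31.0 CPM in EZH2KO.10S2iL, made up most of the fibroblast sum there. Macrophage markers summed to 144.5 to 147 CPM, against 68.2 to 87.5 CPM, with none of 8 tested called. Laptm5 made up most of the macrophage sums, with group means of 130 CPM in EZH2KO.10S2iL and 72.7 CPM in EZH2KO.10SL. The part of these other cell types in the members' changes was not tested.

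Srgn had 0.967 and 1.22 CPM in EZH2KO.10S2iL, against 53.6, 47.5 and 47.2 CPM in EZH2KO.10SL, a log2 fold change of −5.63 ± 0.85 (SE, adjusted p = 9.39e-05). Both libraries with 2i lay below those of wild-type TG2A.NG.PB.S2iL, at 1.81 and 1.48 CPM. Habp2 had 0.228 and 0.408 CPM in EZH2KO.10S2iL, against 5.84, 6.33 and 5.44 CPM in EZH2KO.10SL, and Nostrin 0.967 and 1.17 CPM against 18.4, 12.9 and 14.4 CPM. Their log2 fold changes were −4.32 ± 0.64 and −3.97 ± 0.59 (SE, adjusted p = 7.40e-05 and 7.73e-05), with the EZH2KO.10S2iL libraries far below. Foxq1 had 2.45 and 3.17 CPM in EZH2KO.10S2iL, against 37.5, 29.98 and 29.0 CPM in EZH2KO.10SL, and changed by −3.66 ± 0.59 (SE, adjusted p = 0.000159). Pth1r had 1.88 and 2.27 CPM in EZH2KO.10S2iL, against 13.1, 19.7 and 20.04 CPM in EZH2KO.10SL, and changed by −3.22 ± 0.33 (SE, adjusted p = 2.88e-06). All 5 receptors and surface proteins and all 3 granule, collagen-modifying and protease genes were called lower, as were 3 of 6 secreted ligands and modulators and 5 of 8 trafficking, signalling and protein-turnover genes. Roles were assigned after values were known, and differences between role groups were not tested.

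Cyp27a1 was the member called higher with 2i. It had 5.35 and 3.85 CPM in EZH2KO.10S2iL, against 2.59, 1.56 and 2.50 CPM in EZH2KO.10SL, a change of 0.91 ± 0.25 (SE, adjusted p = 0.00923) that was lost without EZH2KO.10S2iL replicate 1 (adjusted p = 0.165). The wild-type TG2A.NG.PB.S2iL had 2.78 and 2.66 CPM. Myo5b had 17.1 and 18.8 CPM in EZH2KO.10S2iL, against 12.7, 8.31 and 8.95 CPM in EZH2KO.10SL, with an adjusted p of 0.0537 for a change of 0.70. Its libraries did not overlap, and it was the highest member under 2i. Fam114a1 had 9.84 and 10.3 CPM in EZH2KO.10S2iL, against 7.77, 8.26 and 9.91 CPM in EZH2KO.10SL. Mogat2 had 5.92 and 5.13 CPM in EZH2KO.10S2iL, against 4.56, 4.72 and 3.51 CPM in EZH2KO.10SL. Ube2l6 had 7.39 and 8.86 CPM in EZH2KO.10S2iL, against 7.81, 5.73 and 5.79 CPM in EZH2KO.10SL. None of these 3 was called, with changes of 0.08, 0.23 and 0.19. Also not called were Wnt11 at −0.19, Smarca2 at −0.64, Slc44a3 at −0.74, Scube2 at −0.90 and Nrg2 at −1.02. Both EZH2KO.10S2iL libraries lay above both TG2A.NG.PB.S2iL libraries for 31 of 33 members. This count is no measure of a knockout effect under 2i, since the rule chose members for low levels in TG2A.NG.PB.S2iL. It is a description only, and the share over all genes tested was not counted.

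**Figure D3:**
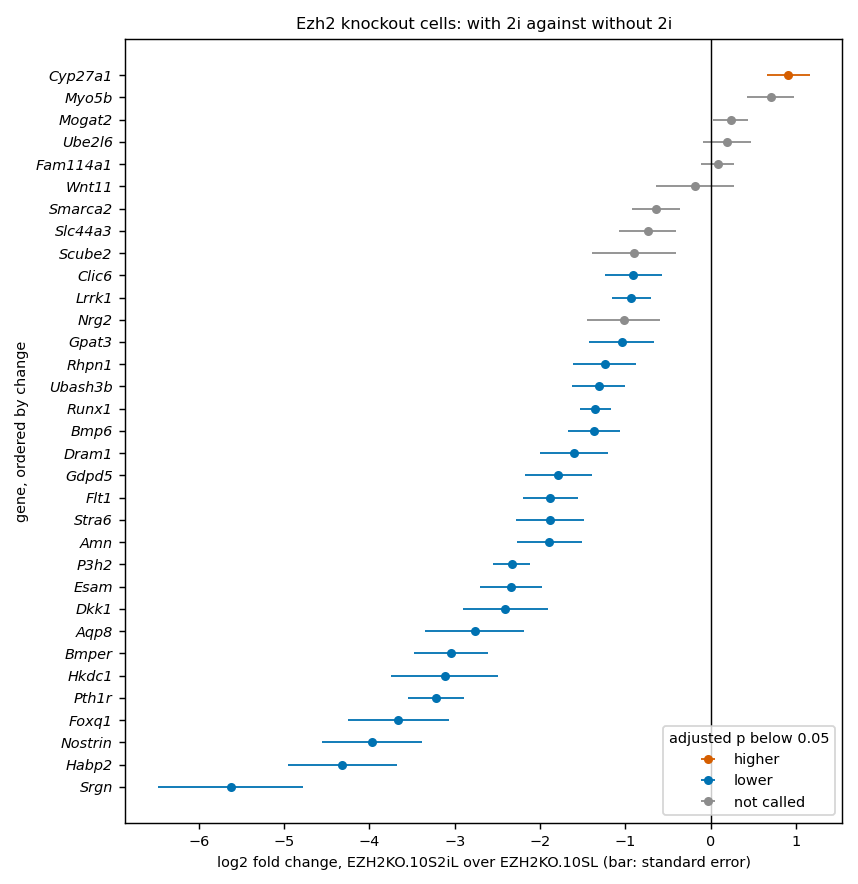
Log2 fold change of each member in EZH2KO.10S2iL over EZH2KO.10SL with its standard error, ordered from highest to lowest and coloured by call at an adjusted p below 0.05. Cyp27a1 is the 1 member called higher, 9 are not called, and 23 are called lower, with Srgn at −5.63 the lowest.

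CpG content near the start could be read for 24 of the 33 members, those with a promoter entry in RefSeq, and 33 windows in all. A window with 10 or more CpG was found for 17 of these 24 genes (70.8%), against 45.8% of the 27025 genes with an entry. Changes with 2i in the knockout ranged from −5.63 to −1.31, with a median of −3.12, in the 7 members whose windows all had under 10 CpG. The 17 members with a CpG-richer window ranged from −3.22 to 0.91 with a median of −1.04, so the ranges overlapped between −3.22 and −1.31. Across the 24 members Pearson's r between the count of the most CpG-rich window and the change was 0.41 and Spearman's rank correlation 0.45. For the change in EZH2KO.10SL over TG2A.NG.PB.ESC, r was −0.36 and the rank correlation −0.40, with medians of 3.58 in the CpG-poor and 2.46 in the CpG-richer members. These are descriptions over members that share the same libraries, and the EZH2KO.10SL libraries enter both changes. Letters known from binding sites of PrE factors were searched on both strands. AGATAA or TGATAA, for GATA factors, stood in a window of 2 of 24 members (8.33%) and of 21.0% of all genes with an entry. TGTTTAC or TGTTTGC, for forkhead factors, stood in 1 member (4.17%) and in 9.47% of all genes, and ACAAT, for SOX factors, in 3 members (12.5%) and in 34.4% of all genes. These letters are mostly A and T, and the median GC content was 61.3% in member windows, against 52.7% over all windows. The part of base composition in the shares was not tested.

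**Figure D4:**
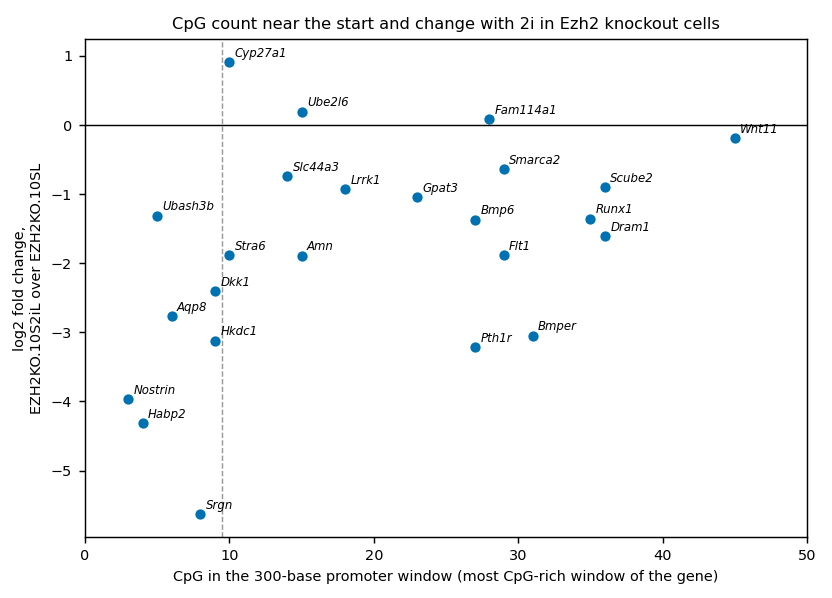
Number of CpG in the most CpG-rich 300-base promoter window of each of 24 members (horizontal) and log2 fold change in EZH2KO.10S2iL over EZH2KO.10SL (vertical), with a dashed line between 9 and 10 CpG. Srgn, Habp2 and Nostrin lie at the lower left with 8, 4 and 3 CpG, and Wnt11 lies near 0 at the far right with 45. Other members lie elsewhere, such as Pth1r (27 CpG, −3.22), Bmper (31 CpG, −3.05) and Ubash3b (5 CpG, −1.31).

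Among wild-type ESCs, C57.ESC held more of the members than TG2A.NG.PB.ESC. Of 33 members, 13 were called higher and none lower in C57.ESC, where 19.8% of all genes tested were called higher and 19.1% lower. The rule held members low in E14.ESC and TG2A.NG.PB.S2iL, both of E14 background, and set no ceiling for C57.ESC, which favours this direction. Among the tested genes under 3 CPM in both ESC groups of the rule, 13.5% were called higher and 7.73% lower. The counts therefore describe these members only. Flt1 had 6.49 and 7.76 CPM in C57.ESC, against 0.825 and 0.396 CPM in TG2A.NG.PB.ESC, and Ube2l6 8.74 and 11.4 CPM against 0.670 and 1.93 CPM. Both C57.ESC libraries were clearly above, with log2 fold changes of 3.49 ± 0.45 and 2.88 ± 0.37 (SE, adjusted p = 2.16e-05 and 2.13e-05). Gpat3, Mogat2 and Fam114a1 followed at 2.27, 2.18 and 1.85. The C57.ESC libraries disagreed, however: 24 of 33 members were higher in replicate 1, and the summed member level was 147 CPM in replicate 1 and 84.9 CPM in replicate 2. Srgn, for example, had 22.1 and 0.651 CPM in them. Without C57.ESC replicate 1, 9 members were called higher and 8 lower, and without replicate 2, 19 were higher and none lower. C57.ESC replicate 1 was also the library with the higher PrE markers and replicate 2 the one with the higher fibroblast markers, and the part of either in these differences was not tested. Strain and line cannot be told apart in this comparison.

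Within the PrE cultures the members were not equal. The highest group mean was more than 2-fold the lowest for 14 of 33 members, from 1.14-fold for Esam to 6.27-fold for Amn. In the mean of EPZ.iPrE1 and EPZ.iPrE2 against C57.PrESC, 5 members were called higher and 12 lower, where 20.6% of all genes tested were called higher and 20.1% lower. The members' median log2 fold change was −0.43. The rule set the same floor for the 3 cultures and did not use their difference, but genes below that floor in any culture were left out, so the counts describe these members and support nothing about PrE genes at large.

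Flt1 had 169 and 267 CPM in EPZ.iPrE2 and 236 and 119.8 CPM in EPZ.iPrE1, against 47.7 and 45.3 CPM in C57.PrESC, a log2 fold change of 2.11 ± 0.27 (SE, adjusted p = 1.10e-05). Gpat3 had 117 and 118 CPM in EPZ.iPrE2 and 127 and 101 CPM in EPZ.iPrE1, against 44.3 and 31.7 CPM in C57.PrESC. Lrrk1 had 252 and 213 CPM in EPZ.iPrE2 and 177 and 196 CPM in EPZ.iPrE1, against 88.0 and 53.6 CPM in C57.PrESC. All 4 EPZ libraries lay above both C57.PrESC libraries for these 3 genes. Gpat3 changed by 1.64 ± 0.35, Lrrk1 by 1.59 ± 0.20, Mogat2 by 1.24 ± 0.18 and Ube2l6 by 0.85 ± 0.25 (SE, edgeR adjusted p = 0.00121, 8.65e-06, 4.39e-05 and 0.0107). The call of Ube2l6 was lost without C57.PrESC replicate 2 (adjusted p = 0.0835).

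In the other direction, Amn had 80.3 and 108 CPM in EPZ.iPrE2 and 54.0 and 29.9 CPM in EPZ.iPrE1, against 244 and 282 CPM in C57.PrESC, and changed by −2.03 ± 0.28 (SE, adjusted p = 2.43e-05). Pth1r had 84.3 and 61.5 CPM in EPZ.iPrE2 and 53.1 and 71.7 CPM in EPZ.iPrE1, against 287 and 168 CPM in C57.PrESC. Aqp8 had 66.5 and 73.4 CPM in EPZ.iPrE2 and 69.6 and 60.5 CPM in EPZ.iPrE1, against 257 and 189 CPM in C57.PrESC. For all 3 genes the EPZ libraries lay below both C57.PrESC libraries. Pth1r changed by −1.72 ± 0.22, Aqp8 by −1.69 ± 0.36, Clic6 by −1.18 ± 0.24 and Slc44a3 by −1.15 ± 0.28 (SE, edgeR adjusted p = 1.27e-05, 0.00132, 0.00102 and 0.00347). All 3 channel and transporter genes were thus lower in the EPZ-derived lines, although Slc44a3 was not called without C57.PrESC replicate 1 (adjusted p = 0.0853) and Aqp8 not by DESeq2 (adjusted p = 0.309). P3h2, Bmper, Bmp6, Smarca2, Stra6, Cyp27a1 and Runx1 were also called lower, by −0.95 to −0.43. The counts leaned on C57.PrESC: without its replicate 1, 5 members were higher and 5 lower, and without its replicate 2, which had the high fibroblast markers, 5 were higher and 12 lower. Markers of other cell types also differed in the EPZ mean. Of the fibroblast markers 8 of 14 were called lower and 1 higher, of the trophoblast markers 5 of 8 tested higher and 1 lower. Over all genes tested, 20.1% were called lower and 20.6% higher. Of the macrophage markers 5 of 8 tested were called lower. Macrophage markers summed to 19.8 to 66.7 CPM in the EPZ-derived libraries, against 67.3 CPM in C57.PrESC replicate 1 and 249.6 CPM in replicate 2. The part of these cell types in the members' changes was not tested. Clic6, at 316 and 662 CPM in the C57.PrESC libraries, was not called without replicate 2 (−0.57, adjusted p = 0.0825).

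Between the EPZ-derived lines 1 member differed by the test. In EPZ.iPrE2 against EPZ.iPrE1, Clic6 was called higher and no member lower, where 1.75% of all genes tested were called higher and 2.16% lower. Clic6 had 302 and 344 CPM in EPZ.iPrE2, against 145 and 129 CPM in EPZ.iPrE1, a log2 fold change of 1.27 ± 0.30 (SE, adjusted p = 0.0211). The call was lost when any 1 of the 4 libraries was left out, with an adjusted p of up to 0.153. Amn, at 1.20 ± 0.35 (SE, adjusted p = 0.0668), Hkdc1 at 1.04 and Habp2 at 1.03 had changes of a similar size without being called.

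**Figure D5:**
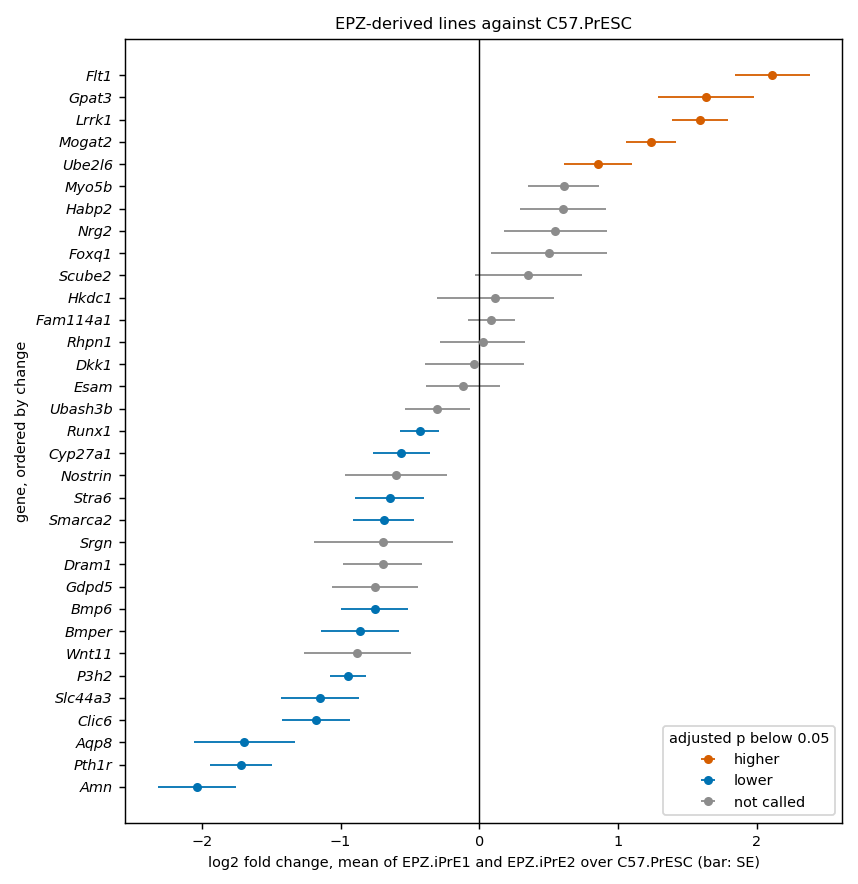
Log2 fold change of each member in the mean of EPZ.iPrE1 and EPZ.iPrE2 over C57.PrESC with its standard error, ordered from highest to lowest and coloured by call at an adjusted p below 0.05. Flt1 at 2.11 and Amn at −2.03 mark the ends, with 5 members called higher, 12 called lower and 16 not called.

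Other genes known from PrE or its derivatives were read from lists for context, first in EZH2KO.10SL against TG2A.NG.PB.ESC, then after rescue and then with 2i. Among PrE transcription factors, from families the rule leaves out, Gata6 changed by 2.27 in the knockout and −4.32 on rescue, Sox17 by 3.07 and −5.37, and Foxa2 by 3.21 and −5.72, while Hnf4a was not called in either. Of 6 basement membrane and receptor genes, 5 were higher, 5 lower after rescue and 5 lower with 2i, and Col4a1, a collagen IV chain, changed by 2.87, −3.89 and −1.75. Of 6 endocytic uptake genes, Amn among them, 5 were higher, 5 lower after rescue and 6 lower with 2i. Cubn, the endocytic receptor that Amn anchors, changed by 3.42, −3.47 and −6.05, and Dab2, an endocytic adaptor, by 3.21, −4.11 and −2.87. Parietal endoderm genes, which include the members Pth1r and Stra6, were higher in the knockout in 7 of 10 cases and lower after rescue in 8, and with 2i 4 were lower and 1 (Krt19) higher. Visceral endoderm genes, which include Dkk1, were higher in 4 of 9 tested, lower after rescue in 4 and lower with 2i in 5. Not every listed gene was well expressed in these PrE cultures. Clu, of the endocytic list, averaged 2.28 to 10.2 CPM in them and 62.9 CPM in EZH2KO.10SL, and Rbp4, of the visceral list, 0.028 to 0.072 CPM and 7.2 CPM. The shares of all genes tested were 13.6% higher in the knockout, 24.1% lower after rescue and 17.3% lower with 2i.

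Of 20 tested coagulation, complement and fibrinolysis genes, which include Habp2, 10 were higher in the knockout. After rescue 12 were lower and 1 (Cd59a) higher, and with 2i 4 were lower, a share of the list near the 17.3% of all genes tested. Over all genes tested, 13.6% were called higher in the knockout and 24.1% lower after rescue. Thbd, the thrombin receptor thrombomodulin, changed by 3.19 in the knockout and −5.17 on rescue, at low levels. Its means were 0.0562 CPM in rescued cells, 2.26 CPM in EZH2KO.10SL and 0.228 CPM in TG2A.NG.PB.ESC. In the PrE cultures it was also low, at 0.775 CPM in EPZ.iPrE2, 0.583 CPM in EPZ.iPrE1 and 0.169 CPM in C57.PrESC. Of 15 Wnt feedback inhibitors and targets, which include Dkk1, 5 were higher and 1 (Sp5) lower in the knockout, and 8 were lower and 1 (Znrf3) higher after rescue. With 2i, which holds an inhibitor of the kinase GSK3 and so raises Wnt signalling, 6 were higher and 3 lower. Dkk1 fell by 2.41 on the log2 scale with 2i, whereas Axin2, a standard Wnt target, changed by 1.08 and Sp5 by 2.39. Of 12 naive and core pluripotency genes, 1 (Prdm14) was higher and 1 (Sox2) lower in the knockout, and 2 were higher and 1 lower after rescue. Of all genes tested, 14.1% were lower in the knockout, 20.9% higher after rescue and 19.6% higher with 2i. The Wnt genes lower with 2i and the pluripotency genes higher after rescue were near the shares of all genes tested.

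Markers of other cell types were read beside these results. Of all genes tested, 13.6% were higher in the knockout, and 24.1% were lower and 20.9% higher after rescue. The fibroblast markers summed to 65.8 to 77.5 CPM in rescued cells, 99.5 to 108 CPM in EZH2KO.10SL and 60.7 to 64.7 CPM in TG2A.NG.PB.ESC, with 1 of 14 called higher in the knockout and 1 lower after rescue. The 9 trophoblast markers summed to 84.9 to 92.9 CPM in rescued cells, 67.4 to 77.3 CPM in EZH2KO.10SL and 46.6 to 63.6 CPM in TG2A.NG.PB.ESC. Tfap2c, which ESCs also express, was the 1 trophoblast marker called higher after rescue, and 4 of 8 tested were called lower after rescue and 2 higher in the knockout. The part of such cells in the members' changes was not tested. The 11 PrE markers, by contrast, summed to 188 to 199.9 CPM in rescued cells, 1670 to 1925 CPM in EZH2KO.10SL and 273 to 294 CPM in TG2A.NG.PB.ESC, and all 11 were called higher in the knockout and lower after rescue.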

How the data were processed

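The authors deposited 1 table of estimated counts per gene symbol (55367 symbols, 22 libraries). Between 5.71 and 7.26% of symbols per library held fractional values, so they were rounded to whole numbers for the tests. Trim Galore, STAR 2.7.6a, DESeq2 and build mm10 appear in the submitters' processing notes. Which counter, annotation and strand rule were used is not given in the sources used here. Labels give polyA RNA and also an rRNA depletion kit, so the RNA selection is uncertain. They spell the knockout gene "Eeh2", which was read as Ezh2.

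CPM used deposited column totals. Counts were tested in R 4.3.3 with edgeR 4.0.16 (filterByExpr over the 10 groups, TMM scaling, quasi-likelihood fit of all 22 libraries with 1 coefficient per group, 12 residual degrees of freedom). Benjamini-Hochberg adjustment ran over the 17547 tested genes of a comparison, calls were made where adjusted p was below 0.05, and SE is the absolute log2 fold change over the square root of F. The fit was tested on simulated data. Alternatives were RLE scaling, no filter, a replicate block, only the compared groups, DESeq2 1.42.0, each library left out, and other thresholds of the rule.

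Chromosome, gene type and overlaps came from GENCODE M21 (GRCm38), and promoter windows from RefSeq. Members and gene lists were chosen with earlier results of these data known, and roles and the bound of 10 CpG were set after names and values were known. Members named in the text were the 12 highest in PrE, up to 5 called per direction and comparison, the 10 largest knockout gains reversed by rescue, those nearest the thresholds and the 5 highest and lowest in the knockout. Others stand as examples of a role, the count over the PrE transcription factor list is not reported here, and the printed promoters were chosen for their CpG range.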

Additional observations from a re-analysis of the deposited data

Results flagged for a closer look

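Srgn was set apart because its knockout effect had opposite signs in the 2 media. With LIF and no 2i, Srgn was higher in every Ezh2-null library than in every TG2A.NG.PB.ESC library. With 2i it had 0.967 and 1.22 CPM in EZH2KO.10S2iL, against 1.81 and 1.48 CPM in TG2A.NG.PB.S2iL, a log2 fold change of −0.74 ± 1.16 (SE). The difference between media was not tested, because TG2A.NG.PB.S2iL was used to choose the members. Srgn was the 1 member of 33 with both EZH2KO.10S2iL libraries below both wild-type ones.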

How the results depend on the processing

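The counts in EZH2KO.10SL against TG2A.NG.PB.ESC (29 to 33 higher, 0 lower) and in EZH2KO.10SL.rescued against EZH2KO.10SL (31 to 33 lower, 0 higher) stayed within 1.5 times under all alternatives run. The smaller comparisons moved more, and the cause was not tested. EZH2KO.10SL.rescued against TG2A.NG.PB.ESC gave 2 higher and 16 lower without the filter, 0 higher and 2 lower in a fit of only the compared groups, and 0 to 1 higher and 0 to 5 lower with 1 library left out. EZH2KO.10S2iL against EZH2KO.10SL gave 2 higher with RLE scaling, without the filter, with only the compared groups and with DESeq2, and 0 to 2 with 1 library left out. C57.ESC against TG2A.NG.PB.ESC gave 2 higher with only the compared groups, 1 lower without the filter, and 7 to 19 higher and 0 to 8 lower with 1 library left out. Scube2 turned to −0.57 in that comparison without C57.ESC replicate 1, and reached 2.59 without replicate 2. EPZ.iPrE2 against EPZ.iPrE1 gave 6 higher and 2 lower without the filter, 2 higher with only the compared groups and with DESeq2, and 0 with any 1 library left out. The EPZ mean against C57.PrESC gave 9 higher without the filter and 5 to 12 lower with 1 library left out. Leaving the C57.PrESC group out of the PrE level, chosen after the data were seen, gave a median knockout level of 9.80% of it, against 8.08% with all 3 groups. A PrE floor of 20 CPM gave 58 members and of 50 CPM 20, an ESC ceiling of 1 CPM gave 16 and of 5 CPM 50, and leaving out 1 library 31 to 36.

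Replicate numbers share only a number, since no label pairs them. Deviations of same-numbered libraries from their group means correlated between −0.318 and 0.338. In groups of 2 libraries these deviations mirror each other, so the sign follows the numbering. The correlations thus cannot decide whether libraries of different groups are paired or share a source of variation. With the replicate block the calls were 32 higher for EZH2KO.10SL against TG2A.NG.PB.ESC, 31 lower for rescue, 1 higher and 3 lower for rescued against TG2A.NG.PB.ESC, 1 higher and 21 lower with 2i, 13 higher for C57.ESC, 2 higher for EPZ.iPrE2 against EPZ.iPrE1, and 5 higher and 11 lower for the EPZ mean. Groups of 2 or 3 libraries and the low counts of members in ESCs limit what could be called.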
